A study of Homo sapiens with 6 samples.

Results

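Wnt ligands, their receptors and their secreted antagonists were followed in HCC-LM3, a human hepatocellular carcinoma line, after knockdown of ASPP2. The 45 genes were taken by symbol from the gene names on the array and comprise 18 Wnt ligands, 10 Frizzled receptors, 5 co-receptors or other receptors, 9 secreted antagonists, 2 receptors for Dickkopf proteins and PORCN, the enzyme that acylates Wnt ligands. They have 82 of the 45033 features on the array and are 45 of 23593 named genes. Where a gene had several features, the brightest by mean log2 intensity was used.

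The 6 samples were HCC-LM3 cells grown in culture and infected with a lentivirus a week before RNA was taken. In 3 samples the virus carried a control shRNA (shNon), and in the other 3 an shRNA against ASPP2 (shASPP2), the product of TP53BP2. Both groups therefore carried a lentiviral shRNA, and the samples of a group came from separate cultures, per the labels. The sources name 1 cell line and 1 knockdown construct, so that the comparison is of this construct with its control in this line. Every culture had a NimbleGen array of its own, read in 1 colour.

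Wnt ligands are secreted lipid-modified proteins that bind Frizzled receptors. Together with the co-receptor LRP5 or LRP6 this stabilises beta-catenin, which acts with TCF factors in the nucleus, while ROR1, ROR2 and RYK carry Wnt5a-type signals that do not depend on beta-catenin. DKK1 blocks LRP5 and LRP6, and SFRP proteins and WIF1 bind the ligands themselves. In liver, the beta-catenin branch sets the zonal pattern of hepatocyte enzymes, and it is often mutated to an active state in hepatocellular carcinoma.

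The target of the shRNA, TP53BP2, had intensities of 332, 488 and 452 in shNon and 228, 216 and 147 in shASPP2, so that all knockdown arrays lay below all controls (log2 fold change -1.11, SE 0.249, limma adjusted p = 0.204). Its second feature had means of 306 and 117, also without overlap (log2 fold change -1.41, adjusted p = 0.0991 in limma over all features). Arrays correlated across features at 0.958 to 0.972 within shNon and at 0.983 to 0.985 within shASPP2. Correlations were lowest for shNon array 3. Of the 17 genes measured over the level defined below, 9 had their highest control value on that array. Of 10 hepatocyte and liver cancer markers, 4 were over that level on all 6 arrays (ALB, FGB, HNF4A and TF), with ALB near it at 63.1 to 93.1. AFP, APOA1, APOB, TTR, SERPINA1 and GPC3 had group means of 26.0 to 70.3 and were not over it on all arrays of either group. The 10 together summed to 7289 to 8594 in shNon and 5652 to 6566 in shASPP2. Within the sum FGB fell from 3727 to 1128 (log2 fold change -1.73, limma adjusted p = 0.0361), while HNF4A had 2562 in shNon and 3794 in shASPP2 (adjusted p = 0.383). Of 4 markers of simple epithelium, 3 were over that level on all 6 arrays (KRT8, KRT18 and CDH1), and EPCAM was under it on every array. CDH1 had means of 613 in shNon and 200 in shASPP2 (log2 fold change -1.62, limma adjusted p = 0.0518). KRT8 went the other way, with 8766 and 14332 (0.71, limma adjusted p = 0.244). Neither had overlapping groups. Of markers of other cells, 1 of 4 for cholangiocytes (KRT7) and 2 of 7 for fibroblasts and stellate cells (COL1A1 and LUM) were over that level on all 6 arrays. So were 1 of 6 for endothelium (PECAM1), 2 of 6 for leukocytes (CD68 and ITGAM) and 0 of 5 for erythroid cells and platelets. SOX9, a cholangiocyte marker, was over it on all 3 shNon arrays and 0 shASPP2 arrays. The fibroblast markers COL3A1 and DCN were over it on 2 shNon arrays and all 3 shASPP2 arrays. The summed endothelial markers ranged from 2059 to 2202 in shNon and from 1096 to 1260 in shASPP2, with PECAM1 as the main part. VWF, KDR and TEK were under the level on every array. CDH5 passed it on 2 shNon arrays and 1 shASPP2 array, and CLEC4G on 2 shASPP2 arrays. The summed cholangiocyte markers ranged from 383 to 1411 in shNon and from 1709 to 2209 in shASPP2. This sum is mainly KRT7, which had 192 on shNon array 3 against 1073 and 1229 on the other control arrays. SOX9 went the other way, with means of 98.5 in shNon and 42.8 in shASPP2 and no overlap, and CFTR was under the level on every array. Their part in the results was not tested. In bulk RNA, a change in the share of cells that express a gene and a change of RNA per cell cannot be told apart.

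A gene was counted as expressed where its intensity exceeded 2 times the value of the random-sequence probes of the same array on all 3 arrays of a group. That limit was between 60.9 and 66.5 on the 6 arrays. By this rule 17 of the 45 genes were expressed, 14 of them in both groups and 3 in shASPP2 alone, namely WNT7B, WNT2B and WNT9B. Over all genes the share was 57.0%, against 37.8% of the 45. Of the ligands 5 of 18 were expressed, and of the antagonists 2 of 9. Of the 10 Frizzled receptors 5 were expressed, and of the 5 other receptors 4. Just inside the limit lay WNT9B, with 76.4, 80.4 and 65.3 in shNon and 91.3, 84.2 and 68.0 in shASPP2, and just outside lay WNT2, which passed it on 4 of the 6 arrays, and WNT1 and KREMEN1, which passed it on 3.

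**Figure D1:**
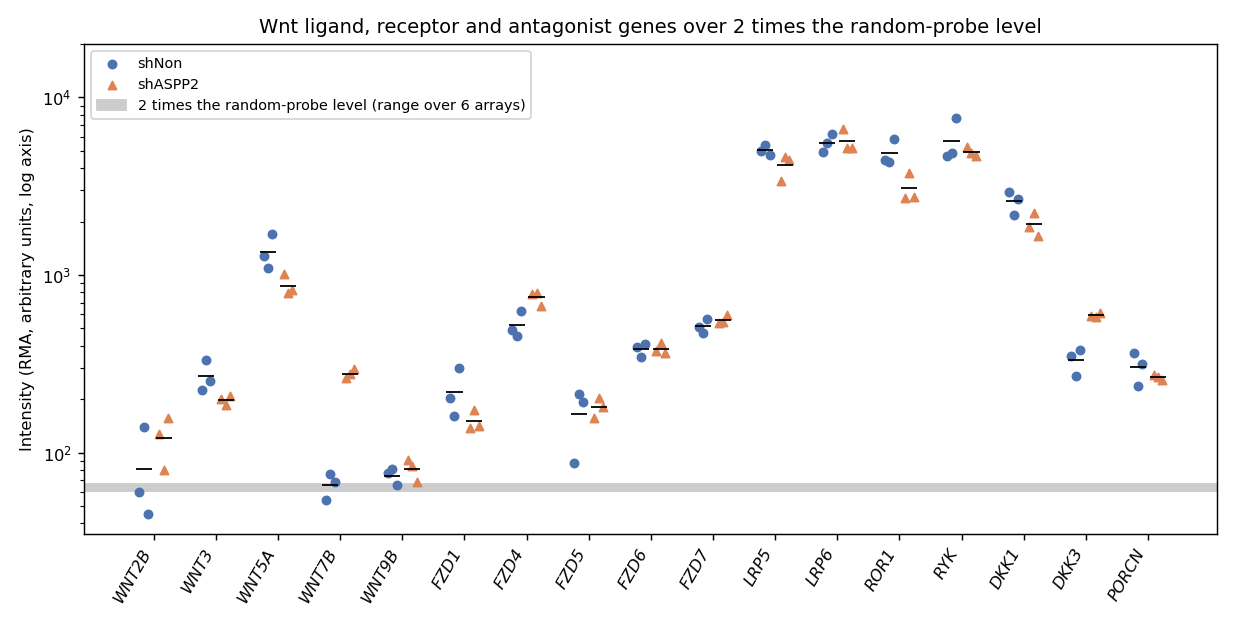
RMA intensity (log axis) of the 17 expressed genes on each array, with shNon as circles and shASPP2 as triangles; black bars are group means of 3 arrays, and the grey band spans 2 times the random-probe level, 60.9 to 66.5. The WNT7B triangles, at 262 to 294, stand clear of its circles, at 53.9 to 75.9.

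WNT7B was the only 1 of the 45 genes to pass the test across all genes. It encodes a secreted ligand that signals mainly through beta-catenin in lung, kidney and brain vessels. Its intensity was 53.9, 75.9 and 68.0 in shNon and 262, 278 and 294 in shASPP2. The control values lay around the limit of expression, 2 of 3 over it, while the knockdown values were 8.54 to 9.56 times the random-probe level. The group means were 65.9 ± 11.1 and 278 ± 16.1 (SD, n = 3), and WNT7B rose 4.25-fold (log2 fold change 2.09, SE 0.191, 95% interval 1.64 to 2.54, limma adjusted p = 0.0280). Among all genes 0.102% passed this threshold, 0.0424% towards higher and 0.0593% towards lower values, and the share of 1 in 45 (2.22%) rests on this gene alone. In the fit over all features, where 0.138% passed, WNT7B passed too. With the random-probe level subtracted from each array, the rise was 2.95 log2 and did not pass (adjusted p = 0.0616). Nor did it pass when any single array was left out, with log2 fold changes of 1.95 to 2.20 and adjusted p-values of 0.0786 to 0.247 over the 6 fits, each with fewer samples, or with a replicate block (adjusted p = 0.270). The gene has 1 feature, which lies on chromosome 22 at 44696315 to 44751395 (hg18, the span of the annotated transcript), so no second measurement of it was at hand.

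WNT7A, the closest relative of WNT7B, stayed at the level of random probes, with 23.9 to 25.7 in shNon and 26.3 to 32.5 in shASPP2. Its log2 fold change was 0.28 (95% interval -0.12 to 0.68). WNT5A, the ligand that most often signals without beta-catenin, was expressed in both groups. Its values were 1284, 1089 and 1694 in shNon and 1013, 787 and 819 in shASPP2, with no overlap, the highest on shNon array 3. The log2 fold change was -0.62 (SE 0.224, 95% interval -1.15 to -0.09, limma adjusted p = 0.371), which did not pass, and without shNon array 3 it was -0.45. The second WNT5A feature gave -0.51, with values of 972 to 1369 in shNon and 659 to 1059 in shASPP2 that overlapped.

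WNT3, a ligand of the beta-catenin branch, had 224, 333 and 253 in shNon and 199.5, 186 and 209 in shASPP2, without overlap, and a log2 fold change of -0.43 (95% interval -0.90 to 0.05, adjusted p = 0.480). Its second expressed feature pointed the opposite way, at 0.26, so that no direction can be given, and without shNon array 2 the feature used gave -0.27. WNT2B had 59.9, 139 and 45.3 in shNon and 128, 80.2 and 156 in shASPP2. These groups overlapped and the interval was wide (log2 fold change 0.70, 95% interval -0.36 to 1.75). The value was 0.36 without shNon array 3 and 1.17 without shNon array 2. WNT9B, whose gene lies next to WNT3 on chromosome 17 (42265619 to 42312912 against 42196854 to 42251081, hg18), had a log2 fold change of 0.13 (95% interval -0.33 to 0.58), and 0.037 to 0.25 without single arrays. Its other features were not over the limit on all arrays of either group and gave 0.06 and -0.47, so no direction can be given.

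The other 13 ligands, WNT1, WNT2, WNT3A, WNT4, WNT5B, WNT6, WNT7A, WNT8B, WNT9A, WNT10A, WNT10B, WNT11 and WNT16, were not expressed in either group, and 8 of them were under the limit on every array. Their intensities ranged from 19.4 to 127 and their log2 fold changes from -0.61 to 0.73. WNT10B was the only one of them with an unadjusted p under 0.05 (log2 fold change -0.61, limma adjusted p = 0.357). All its values, 28.8 to 60.6, were under the limit, and another of its features gave 0.51, so no direction can be given. Among the dim ligands WNT6 varied most, from 34.7 to 127 within shNon. Another WNT6 feature had a log2 fold change of -0.52 with an unadjusted p under 0.05 and did not pass over all features.

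PORCN, which all Wnt ligands need for acylation in the endoplasmic reticulum, was expressed in both groups, at 364, 237 and 315 in shNon and 275, 267 and 255 in shASPP2. The groups overlapped, and its log2 fold change was -0.18 (95% interval -0.66 to 0.31), with a second feature at 0.38. It was -0.04 without shNon array 1 and -0.35 without shNon array 2.

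**Figure D2:**
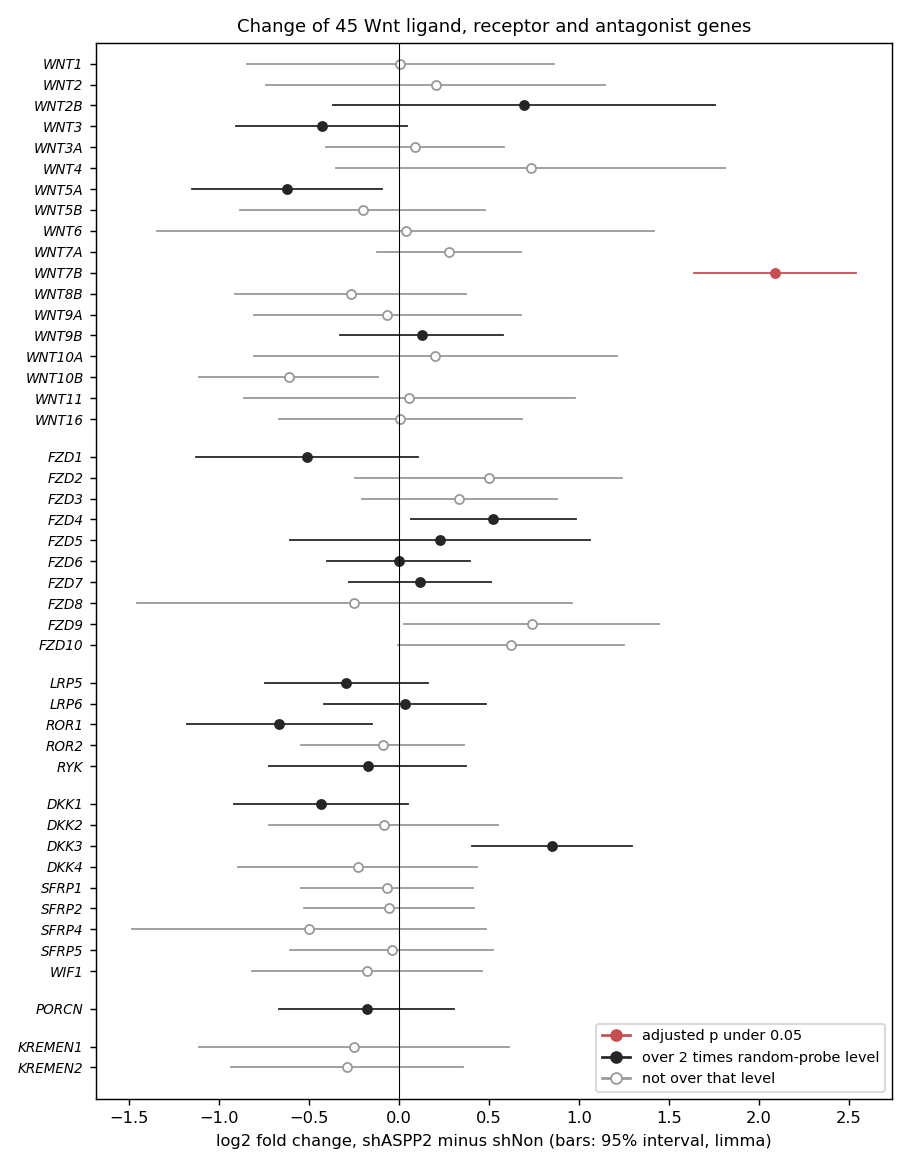
Log2 fold change of shASPP2 over shNon for all 45 genes by role (ligands, Frizzled receptors, other receptors, antagonists, PORCN and Dickkopf receptors), with 95% intervals from limma; filled points are expressed genes and open grey points are not. WNT7B at 2.09 is the only point past an adjusted p of 0.05.

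Among the receptors, ROR1 had the lowest log2 fold change. ROR1 is a receptor tyrosine kinase-like protein of embryonic tissue and many tumours that binds WNT5A. Its values were 4471, 4317 and 5866 in shNon and 2727, 3768 and 2763 in shASPP2, and the groups did not overlap. The means were 4885 ± 853 and 3086 ± 591 (SD, n = 3), which leaves 63.1% of the control signal. The log2 fold change was -0.67 (SE 0.218, 95% interval -1.18 to -0.15) and did not pass over all genes (limma adjusted p = 0.342). It passed in limma with trend and robust variance (adjusted p = 0.0228), where 2.14% of all genes were called, 0.996% higher and 1.15% lower. The second ROR1 feature gave -0.52, with values of 920 to 966 in shNon and 613 to 697 in shASPP2 that did not overlap either. Without shNon array 3, which held the highest value, the log2 fold change of ROR1 was -0.53. Its relative ROR2 was not expressed in either group, with values of 30.4 to 41.5.

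The promoters of WNT5A and ROR1 are shown because this ligand and its receptor had the lowest log2 fold changes among the expressed genes, and that of DKK1 because DKK1 is known as a target of beta-catenin and TCF. Each sequence is the 250 bases before an annotated start, 5′ to 3′ on the strand of the gene, from RefSeq on GRCh38.p14. The windows are chr3:55481399-55481648 (minus strand) and chr3:55487307-55487556 (minus strand) for the 2 starts of WNT5A, chr1:63773767-63774016 (plus strand) for ROR1 and chr10:52314031-52314280 (plus strand) for DKK1. Capitals mark CTTTGAA or CTTTGAT, 2 words of the TCF type, searched on both strands.
WNT5A start 1: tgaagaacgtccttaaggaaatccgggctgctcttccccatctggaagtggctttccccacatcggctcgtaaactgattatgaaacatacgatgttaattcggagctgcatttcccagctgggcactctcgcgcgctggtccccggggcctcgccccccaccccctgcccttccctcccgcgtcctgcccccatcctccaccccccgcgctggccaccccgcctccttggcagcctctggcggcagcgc
WNT5A start 2: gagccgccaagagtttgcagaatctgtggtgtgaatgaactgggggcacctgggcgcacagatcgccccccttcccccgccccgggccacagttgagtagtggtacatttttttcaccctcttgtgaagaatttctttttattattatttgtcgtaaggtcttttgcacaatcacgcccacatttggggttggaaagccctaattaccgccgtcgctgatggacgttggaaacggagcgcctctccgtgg
ROR1: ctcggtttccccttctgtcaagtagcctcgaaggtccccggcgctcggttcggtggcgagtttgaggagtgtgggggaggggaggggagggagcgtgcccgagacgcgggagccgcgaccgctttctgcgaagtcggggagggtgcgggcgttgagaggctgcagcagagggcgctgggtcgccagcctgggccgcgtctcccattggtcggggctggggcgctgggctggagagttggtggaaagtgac
DKK1: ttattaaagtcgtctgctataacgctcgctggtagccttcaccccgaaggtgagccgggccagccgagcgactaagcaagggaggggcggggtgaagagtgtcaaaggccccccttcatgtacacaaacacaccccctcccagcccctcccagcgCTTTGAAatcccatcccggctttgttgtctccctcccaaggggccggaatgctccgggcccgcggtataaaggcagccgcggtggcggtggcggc
The word CTTTGAA occurs in the DKK1 window, at 95 to 89 bases before the start, and neither word is in the 3 other windows. The table held 34 windows for 30 of the 45 genes, and 1 of the 34 (2.94%) had either word, against 5.94% of all 35116 windows. WNT7B and DKK3 had no window in it, so their promoters were not searched.

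LRP5 and LRP6, the co-receptors of the beta-catenin branch, were far over the random-probe level in both groups. LRP5 had 4967, 5416 and 4759 in shNon and 3389, 4631 and 4458 in shASPP2, without overlap, and a log2 fold change of -0.29 (95% interval -0.74 to 0.16, adjusted p = 0.604). Without shASPP2 array 1, the lowest, it was -0.15. LRP6 had 4909 to 6203 and 5197 to 6653, with overlapping groups and a log2 fold change of 0.03 (95% interval -0.42 to 0.48). RYK, a receptor with a WIF-type Wnt-binding domain, had 4682, 4841 and 7633 in shNon and 5280, 4877 and 4691 in shASPP2. Its log2 fold change was -0.17, and 0.05 without shNon array 3, which held the value of 7633. The second RYK feature gave -0.19, with overlapping groups.

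Of the Frizzled receptors, FZD1, FZD4, FZD5, FZD6 and FZD7 were expressed in both groups. FZD4, which also serves Norrin in blood vessels, had 488, 456 and 624 in shNon and 786, 790 and 667 in shASPP2, without overlap (log2 fold change 0.52, SE 0.194, 95% interval 0.07 to 0.98, limma adjusted p = 0.383). This feature stands for a transcript annotated at 86339475 to 86343948 on chromosome 11 (hg18). The 2 other FZD4 features stand for transcripts that reach further, from 86334368 or 86334369 to 86344081, and gave -0.27 and -0.03, with overlapping groups. The 3 features thus gave no common direction, and the difference between them was not tested.

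FZD6 and FZD7 had group means close to each other on the features used. FZD6, a receptor of planar polarity, had 345 to 410 in shNon and 365 to 413 in shASPP2, and the 95% interval of its log2 fold change was -0.40 to 0.40. FZD7, a receptor often raised in liver cancer, had 473 to 566 and 535 to 598 (log2 fold change 0.12, 95% interval -0.28 to 0.51). Its second feature ranged from 66.6 to 157 in shNon and from 69.9 to 97.6 in shASPP2 and gave -0.42, so that the features of FZD7 gave no common direction. FZD1 had 202, 160 and 299 in shNon and 137, 173 and 142 in shASPP2, with a log2 fold change of -0.51 (95% interval -1.13 to 0.11), and without shNon array 3 it was -0.27. Its second feature, dim at 53.0 ± 2.21 and 79.6 ± 17.2 (SD, n = 3), gave 0.56 without overlap. In limma over all features its unadjusted p was 0.0318 and its adjusted p 0.391. The features of FZD1 thus gave no common direction. FZD5 had 87.0 on shNon array 1 against 192 and 214 on the other shNon arrays and 156 to 203 in shASPP2, and its log2 fold change of 0.23 was -0.18 without shNon array 1. The second FZD5 feature gave 0.31, with overlapping groups.

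FZD2, FZD3, FZD8, FZD9 and FZD10 were not expressed, with values of 20.6 to 83.4. FZD9 had 25.6 to 31.4 in shNon and 43.9, 32.2 and 70.8 in shASPP2, without overlap but over the limit on 1 array only (log2 fold change 0.74, limma adjusted p = 0.417).

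**Figure D3:**
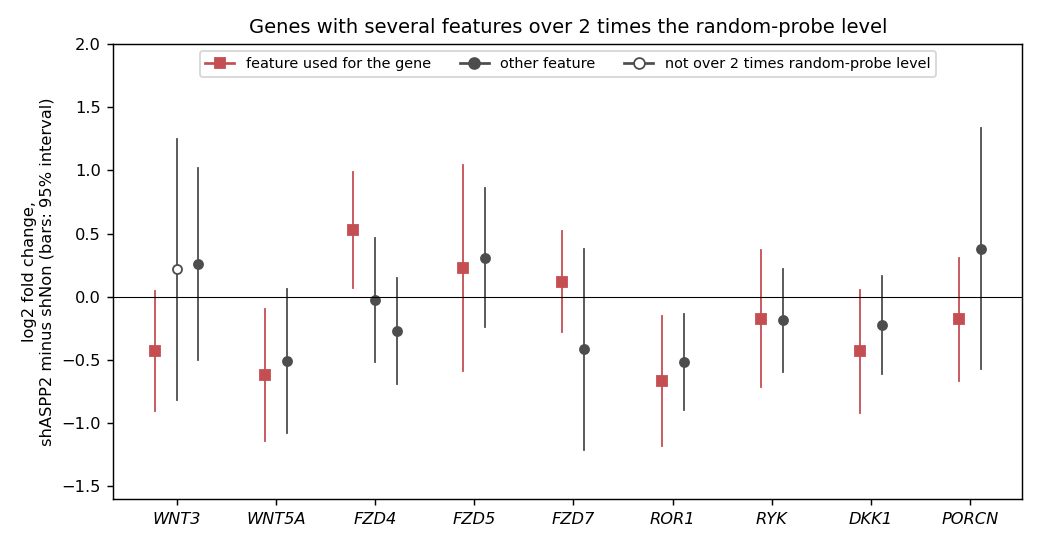
Log2 fold change of each feature (95% intervals from limma over all features) for the 9 genes with several features over 2 times the random-probe level; squares are the features used and open points are dim. The 2 features of ROR1 (-0.67 and -0.52) and of WNT5A (-0.62 and -0.51) point the same way, while those of FZD4, FZD7, WNT3 and PORCN lie on both sides of 0.

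Of the secreted antagonists only DKK1 and DKK3 were expressed. DKK3, a divergent Dickkopf protein that is often silenced in tumours and is not a general blocker of LRP6, had 348, 269.6 and 377 in shNon and 585, 581 and 611 in shASPP2. All knockdown values exceeded all controls, and the means were 331 ± 55.4 and 592 ± 16.2 (SD, n = 3). The log2 fold change was 0.85 (SE 0.189, 95% interval 0.41 to 1.30), second to WNT7B in p among the 45 genes, and did not pass over all genes (limma adjusted p = 0.201). With trend and robust variance it did (adjusted p = 0.0325). The gene has 1 feature, on chromosome 11 at 11941118 to 11986762 (hg18).

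DKK1, which keeps LRP5 and LRP6 from forming a complex with Frizzled, had 2950, 2172 and 2677 in shNon and 1875, 2243 and 1658 in shASPP2. The groups overlapped by 1 array, and the log2 fold change was -0.43 (95% interval -0.92 to 0.05, adjusted p = 0.482). On its second feature the groups did not overlap, with a log2 fold change of -0.23. DKK2, DKK4, SFRP1, SFRP2, SFRP4, SFRP5 and WIF1 were not expressed, with values of 20.7 to 88.0 and log2 fold changes of -0.50 to -0.04. KREMEN1 and KREMEN2, which bind Dickkopf proteins and take LRP6 from the surface, were not expressed either, with values of 29.9 to 79.2.

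Over the 45 genes, 7 had an unadjusted p under 0.05 in limma, 15.6% against 11.5% of all genes. Of these, 4 were higher (WNT7B, DKK3, FZD4 and FZD9), where the share over all genes was 5.54%, and 3 lower (ROR1, WNT10B and WNT5A), where it was 5.93%. When arrays were centred on their medians, 3 were higher and 4 lower, where the share over all genes was 11.8% for both directions together. Leaving out shNon array 2 gave 11 such genes, where the share over all genes was 13.2%. Leaving out shASPP2 array 1 gave 3 (8.59% of all genes), shASPP2 array 2 gave 4 (8.36%) and shASPP2 array 3 also 4 (7.15%). The groups did not overlap in 10 genes, 22.2% against 18.8% of all genes, 5 of them higher (9.3% of all genes) and 5 lower (9.52%). The median log2 fold change was -0.04 over the 45 genes and 0.01 over all genes. Nothing particular to the list is read from these shares. The median SD between arrays was 0.38 log2 in shNon and 0.23 in shASPP2 over the 45 genes, and 0.25 and 0.18 over the 17 expressed ones. Over all genes it was 0.31 and 0.23, so that the wider spread of the controls was not limited to the list.

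Other genes of the pathway were taken from a list of 65, of which 41 were expressed in at least 1 group (63.1%, against 57.0% of all genes). None passed over all genes in limma, and 7 had an unadjusted p under 0.05 (10.8%, against 11.5% of all genes). Of these, 5 were higher, where the share over all genes was 5.54%, and 2 lower, where it was 5.93%. In shASPP2, WLS, the carrier that brings acylated Wnt ligands to the cell surface, had 3528, 3814 and 3385 against 2666, 2337 and 2331 in shNon (log2 fold change 0.55, SE 0.165, adjusted p = 0.306). All 6 WLS features were higher, by 0.45 to 0.75 log2, and none had overlapping groups. SOST, a secreted inhibitor of LRP5 and LRP6 known from bone, had 1256, 1707 and 1612 in shNon and 2396, 2462 and 2621 in shASPP2 (0.72, SE 0.186, adjusted p = 0.252). Its other feature gave 0.79 and was far dimmer, with means of 49.1 in shNon, under the limit of expression, and 85.3 in shASPP2. LGR4, a receptor for R-spondins, had -0.45 and overlapping groups.

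Inside the cell, TCF7, a TCF factor and itself a Wnt target, had 324, 338 and 371 in shNon and 652, 658 and 719.5 in shASPP2 (log2 fold change 0.97, SE 0.163, limma adjusted p = 0.123). Its 2 other features gave 0.91 and 0.78. With trend and robust variance, where 2.14% of all genes passed, so did 3 of the 65, TCF7 at an adjusted p of 0.00743, SOST at 0.00976 and WLS at 0.0277. NKD1, an inhibitor of Dishevelled and also a Wnt target, had 282, 452 and 98.7 in shNon and 746, 674 and 739 in shASPP2, so that its log2 fold change of 1.63 has an SE of 0.511 (adjusted p = 0.324). AXIN2, the most general Wnt target, had 1754, 2010 and 1794 in shNon and 2196, 2086 and 2345 in shASPP2, a small difference without overlap (0.25, 95% interval -0.13 to 0.64). Of other Wnt targets on the list, LGR5 (0.07), RNF43 (0.11) and ZNRF3 (0.35) had overlapping groups. LEF1, NOTUM and APCDD1, also Wnt targets, were not expressed. CSNK1E, a kinase that acts on Dishevelled, had -0.49 (limma adjusted p = 0.410) and groups that did not overlap. In the planar polarity and calcium branch the smallest p-values among expressed genes belonged to CAMK2D (-0.43), PRICKLE2 (0.74) and VANGL1 (0.29), with adjusted p-values of 0.420, 0.486 and 0.592. Other features of CAMK2D gave -0.34, -0.08 and, on a dim feature, 0.21.

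**Figure D4:**
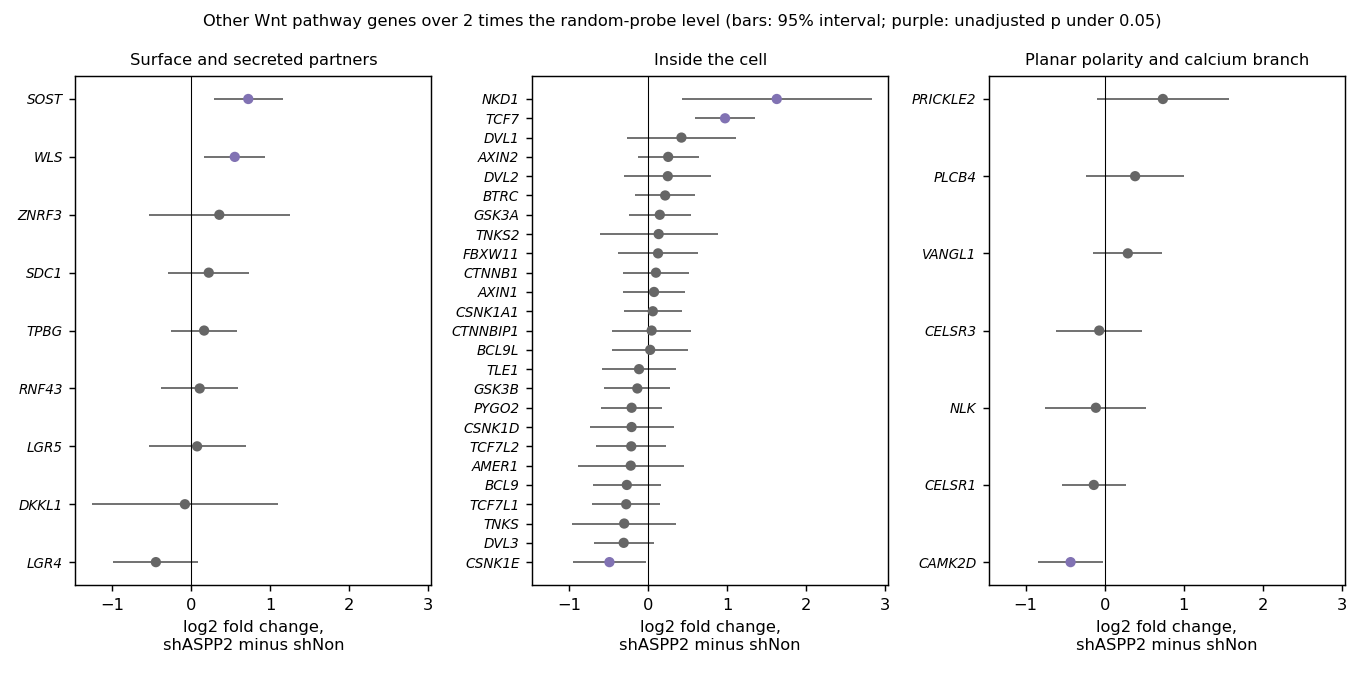
Log2 fold change, shASPP2 minus shNon, of the 41 other pathway genes that were expressed, in 3 groups, with 95% intervals from limma; purple points have an unadjusted p under 0.05. None passed an adjusted p of 0.05, and the highest values are NKD1 (1.63), TCF7 (0.97), PRICKLE2 (0.74) and SOST (0.72).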

How the data were processed

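Total RNA of 6 HCC-LM3 cultures was labelled with Cy3 and hybridised to NimbleGen arrays in 1 colour, per the labels. The authors deposited 1 intensity per feature and array on a linear scale. Per the submitters' processing notes it came from RMA, whose version is not given in the sources.  RMA as usually defined corrects background, equalises arrays and joins the 3 probes of each feature, which compresses the fold changes of dim genes and hides differences in total RNA. A row of 2508 random-sequence probes served as the background level and was left out of all tests. The value table of the series had 0 cells that differed from the per-sample files.

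Symbols were updated through gene identifiers in RefSeq's gene table of GRCh38.p14. The deposited intensities were taken to log2 and fitted with limma 3.58.1 (lmFit and eBayes) in R 4.3.3 over 23593 genes, with group as the only term and Benjamini-Hochberg adjustment over all genes at 0.05. Fold changes are shASPP2 minus shNon, errors of fold changes are limma's moderated SE, and tests are two-sided. The script was tested on simulated data. Precision is limited by having 3 arrays in each group, and an exact permutation test could not go below p = 0.1. The genes, lists and tests were chosen with earlier results of these data known. Named with values are all expressed members, dim members by range, and, of each of the 3 pathway groups, the 3 expressed genes with the smallest p. AXIN2, the other Wnt targets named with it and the dim members with values of their own were added after their values were seen. Alternatives were the value table, median centring, cyclic loess, subtraction of the random-probe level (floor 10), the mean of all features, a filter at 2 times the random-probe level, trend with robust variance, array weights, a replicate block, a test against a fold of 1.2, all features, other limits of expression and each array left out.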

Additional observations from a re-analysis of the deposited data

How the results depend on the processing

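The count of the 45 genes past an adjusted p of 0.05 was 1, WNT7B, with the value table, median centring, cyclic loess, the mean of all features, the filter at 2 times the random-probe level, array weights, a fold of 1.2 and all features. It was 3 with trend and robust variance (2 higher, 1 lower), and 0 with the random-probe level subtracted, with the replicate block and in each of the 6 fits without an array, where 3 to 11 genes had an unadjusted p under 0.05. The block and the fits without an array have fewer residual degrees of freedom, and for the other settings the cause was not tested. Of all genes 24 passed, against 84 with subtraction, 40 with the mean of all features, 170 with the filter, 506 with trend and robust variance and 0 to 6 without single arrays, where 1686 to 3106 had an unadjusted p under 0.05. With the replicate block, 6 of the 45 genes had an unadjusted p under 0.05, and of all genes 0 passed and 2208 had an unadjusted p under 0.05. Deviations from the group mean correlated at 0.076, -0.0975 and -0.136 for samples of the same number. For samples of unlike numbers they correlated at -0.110 to 0.176. With 3 arrays in each group these values cannot decide whether the numbers mark a shared batch. Of the 65 other pathway genes, 0 passed in the fit reported and in any fit without an array, 1 (TCF7) with the filter or with subtraction, and 3 with trend and robust variance. Their count at an unadjusted p under 0.05 was 7, with 4 under the replicate block and 4 to 9 without single arrays. The number of expressed genes was 15 to 21 over the other limits and 17 to 19 without single arrays, and the median log2 fold change of the 45 genes stayed between -0.09 and 0.02. The genes whose direction turned had not passed in the fit reported. With the mean of all features WNT3 was at 0.016, FZD1 at 0.026, PORCN at 0.10, FZD7 at -0.15 and WNT9B at -0.094. FZD6 was at -0.033 with median centring and -0.020 with cyclic loess, and LRP6 at -0.00032 with median centring. Without single arrays FZD5 ranged from -0.18 to 0.47, FZD6 from -0.073 to 0.051, LRP6 from -0.085 to 0.12 and RYK from -0.30 to 0.054. Genes under 2 times the random-probe level carry mostly background signal, which limits their fold changes.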
